A study of Mus musculus with 8 samples.

Results

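The immunity-related GTPases (IRG) and guanylate-binding proteins (GBP) are 2 families of GTPases that mouse cells make when interferon reaches them, interferon gamma above all. Interferon gamma acts through the kinases JAK1 and JAK2 on genes with GAS elements in their promoters, and raises IRF1, a factor that binds ISRE elements. The proteins assemble on the membranes of intracellular vacuoles and microbes, and their transcripts are widely used as a readout of interferon sensing by a cell. Transcripts of 9 members were followed, listed by gene name with earlier results of these data known. They are the IRG genes Igtp, Irgm1, Irgm2 and Iigp1 and the GBP genes Gbp2, Gbp2b, Gbp3, Gbp5 and Gbp7. These are 9 of 18473 genes that passed the detection filter, and 9 of 32502 genes listed in any library. A further 17 IRG and GBP genes that passed the filter were kept as a separate list.

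The libraries were made from brains of C57BL/6 mice (C57BL/6N in the study's methods), either wild-type (WT, Irg1/Acod1 +/+) or knock-out (KO, Irg1/Acod1 -/-) for aconitate decarboxylase 1, the enzyme that makes itaconate in activated myeloid cells. Each genotype gave a naïve, an early, an intermediate and a late library, 8 libraries in all. Tumour-bearing mice of both genotypes carried GL261 cells, a mouse glioma line, of which 500 cells were implanted in the right striatum by the labels and in the frontal cortex by the study's methods, and were taken at tumour volumes of 5 to 10, 20 to 25 and 30 to 35 mm3. Naïve mice had no implant, and the title of each naïve library names 2 mice, so those libraries pool animals. By the study's methods the WT and KO animals were of opposite sex where tumours were early or intermediate, so there sex and genotype cannot be told apart. The WT early mouse was female and the WT late mouse male, while the KO early and late mice were both male. Between the early and late WT libraries sex and stage thus cannot be told apart. The GL261 cells are 1 implanted line, so their genotype label is that of the host.

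Each library was a Drop-seq experiment, in which single cells are captured with barcoded beads and the 3′ ends of transcripts are counted as unique molecular identifiers (UMIs). After filtering, 5698 cells with a median of 2597.5 to 5637.5 UMIs per library were grouped by marker genes, with all IRG, GBP and listed interferon genes left out of the clustering. Tumour cells (3386), microglia-like cells (379; called TAM I in tumour-bearing brains) and monocyte-derived macrophages (431; TAM II) were the classes of most interest, TAM standing for tumour-associated microglia or macrophage. Between the 1000 barcodes taken per library, 2 barcodes occurred in more than 1 library. The 9 cells of naïve libraries that fell with the tumour cells carried choroid plexus markers and were left out. Levels are UMIs of a gene per 1000000 UMIs of a class in a library (CPM), and intervals are exact 95% Poisson or binomial intervals that cover counting error only. Acod1 UMIs were counted in the libraries labelled KO too, for example 68.2 CPM in TAM II of the library labelled KO early beside 126 CPM in that labelled WT early. The study's methods place a cassette in the KO allele between exons 3 and 5 and do not say what it does to the 3′ end, where tags are counted. These UMIs therefore do not check the labels, and libraries are named by their labels. The genotype of the mice was checked by PCR, by the same methods.

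Positions are those of GENCODE M21 on GRCm38, where every member is annotated as protein-coding. The 5 GBP members lie in a cluster on chromosome 3, on the plus strand: Gbp5 (142493978 to 142522344), Gbp7 (142530342 to 142550149), Gbp3 (142560026 to 142573209), Gbp2b (142594847 to 142619179) and Gbp2 (142620602 to 142638008). Gbp2b ends 1423 bases before Gbp2 starts. On chromosome 11 lie Igtp (58199556 to 58207591, plus strand), Irgm2 (58199618 to 58222782, plus strand, its annotated range overlapping Igtp) and Irgm1 (48861968 to 48871683, minus strand). Because UMIs are counted at 3′ ends, the last 500 bases of the transcripts were compared. Of their stretches of 50 bases, 3.55% in Gbp2 also occurred in Gbp2b and 2.74% in Gbp3 also in Gbp7. The shares were 1.99% in Irgm1 and 0.432% in Gbp5, with genes of other families, and none in Igtp, Irgm2, Iigp1, Gbp2b or Gbp7 occurred in another gene. Reads of overlapping genes could still be split by the counting in ways the tables do not show.

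Promoter sequences are shown because the levels of the members moved together over cell classes and libraries. RefSeq windows on GRCm38.p6 were given for 8 of the 9 members, with 2 windows for Gbp3, each from 250 bases before to 50 bases after a transcription start. The motifs searched on both strands were GAS, TTCNNNGAA, and ISRE, GAAANNGAAA. A GAS match was found in 4 of the 9 windows and an ISRE match in 8 of 9, against 8.30% and 3.44% of all 32851 promoter windows. The 170 bases before the start are printed for the overlapping pair Igtp and Irgm2, for the neighbours Gbp2 and Gbp2b, which differed between cell classes, and for Gbp7, 5′ to 3′ on the plus strand, on which all 5 lie, with motif matches in capitals.
Igtp (chr11:58199386-58199555): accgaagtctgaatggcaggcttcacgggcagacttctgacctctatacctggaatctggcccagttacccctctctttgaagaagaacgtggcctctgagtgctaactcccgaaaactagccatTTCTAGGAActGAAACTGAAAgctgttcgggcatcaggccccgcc
Irgm2 (chr11:58214807-58214976): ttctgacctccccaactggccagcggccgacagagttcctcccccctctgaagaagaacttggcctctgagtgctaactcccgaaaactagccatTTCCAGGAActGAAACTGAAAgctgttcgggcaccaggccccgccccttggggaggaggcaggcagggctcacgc
Gbp2 (chr3:142620493-142620662): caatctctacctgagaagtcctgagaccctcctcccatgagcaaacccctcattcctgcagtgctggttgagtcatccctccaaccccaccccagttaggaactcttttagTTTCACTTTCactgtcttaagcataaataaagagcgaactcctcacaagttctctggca
Gbp2b (chr3:142594677-142594846): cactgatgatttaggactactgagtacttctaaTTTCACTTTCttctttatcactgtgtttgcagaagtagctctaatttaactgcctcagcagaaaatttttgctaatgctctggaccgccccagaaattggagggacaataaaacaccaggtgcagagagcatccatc
Gbp7 (chr3:142530166-142530335): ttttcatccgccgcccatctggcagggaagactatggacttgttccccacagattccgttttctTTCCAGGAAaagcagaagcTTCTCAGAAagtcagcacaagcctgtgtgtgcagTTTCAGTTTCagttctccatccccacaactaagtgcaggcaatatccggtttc
The Igtp and Irgm2 windows share a run of 38 bases, and both hold a GAS match just before an ISRE match. Gbp2 and Gbp2b, neighbours on the chromosome, each hold an ISRE match and share no run over 10 bases. Gbp7 holds 2 GAS matches and an ISRE match. These matches are descriptions of letters and not binding sites.

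The question of the first comparison was whether resident brain cells differed in these transcripts between naïve and tumour-bearing brains. In microglia-like cells 6 of the 7 members tested were higher in tumour-bearing libraries, beside 9.71% of the 3243 genes tested, with Gbp2 and Iigp1 near 0 in naïve brains. Different clusters held most of this class in the 2 conditions: 1 cluster held 195 naïve and 10 tumour-bearing cells, and the others held 88 and 78 tumour-bearing cells beside 1 and 7 naïve cells. Oligodendrocytes, which held almost no member UMIs in naïve brains, showed 4 of 6 tested members higher, beside 1.64% of 2623 genes. Endothelial cells already held all members other than Gbp2b in naïve brains, and 1 of 5 tested members, Iigp1, was higher, beside 4.14% of 1450 genes.

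**Figure D1:**
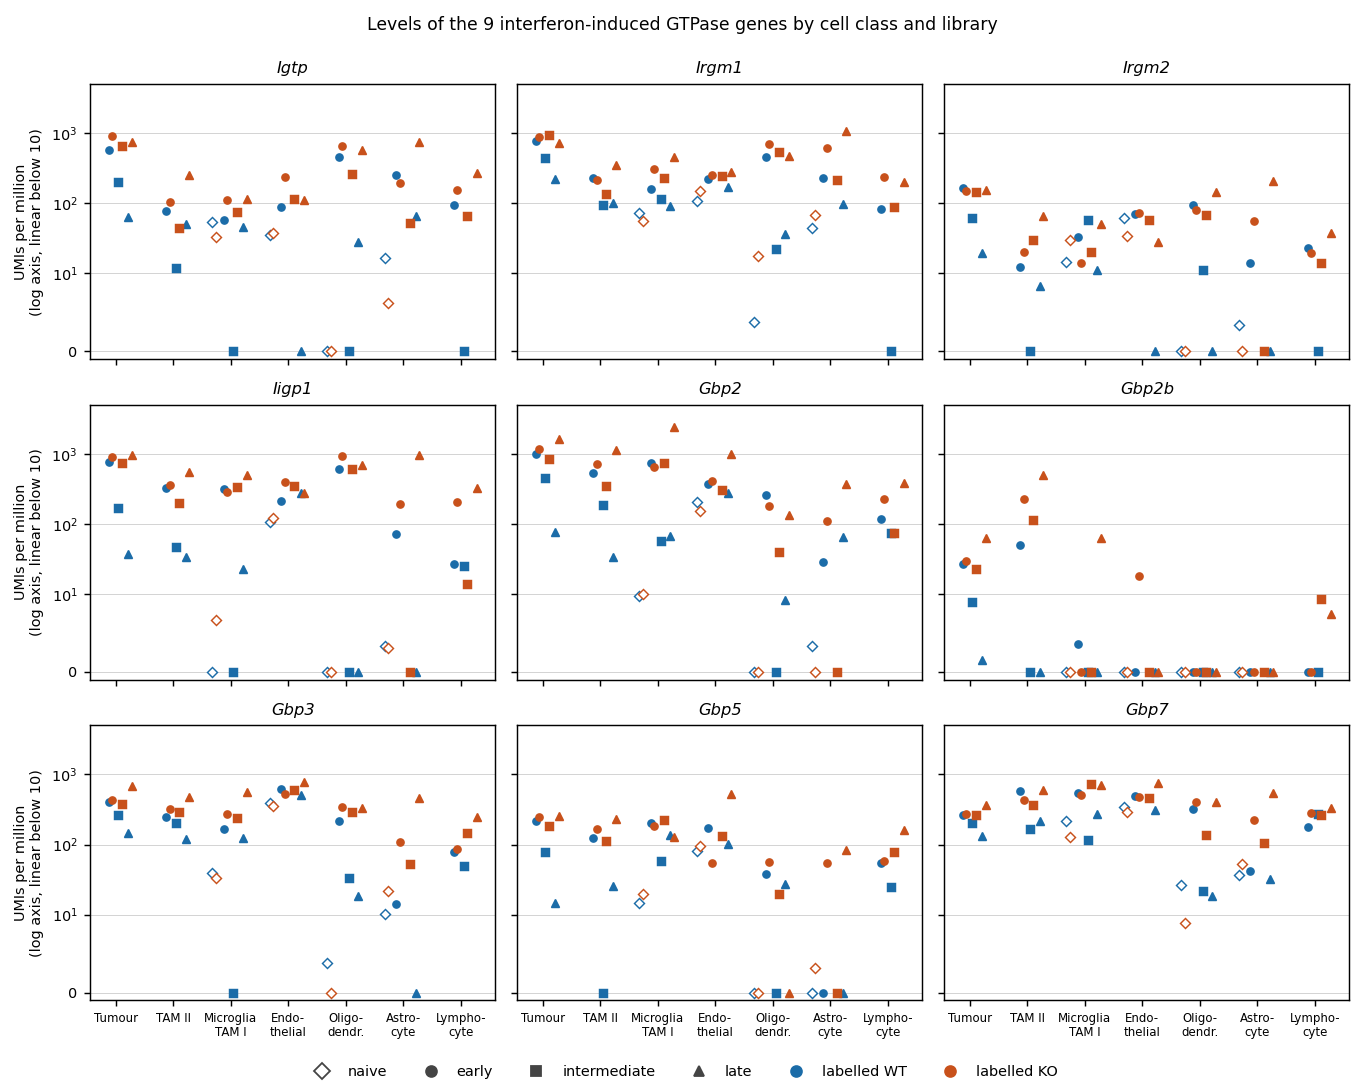
Level of each of the 9 genes in 7 cell classes, in CPM (log axis, linear below 10). Each point is 1 library with at least 5 cells of the class, open diamonds are naïve brains, shape gives the stage, and blue and orange give the labels WT and KO. Gbp2 in microglia lies at about 10 in both naïve libraries and reaches 2441 in the late library labelled KO, whereas Gbp2b is at 0 in all oligodendrocyte and astrocyte points.

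Gbp2, a guanylate-binding protein of cell-autonomous defence, was at 9.73 and 10.0 CPM in naïve microglia labelled WT and KO. In TAM I it was at 746, 57.7 and 67.7 CPM in the early, intermediate and late libraries labelled WT, and at 650, 735 and 2441 CPM in those labelled KO. All 6 tumour-bearing values lie above both naïve values, and the 2 low ones among them are the intermediate library labelled WT, which held 5 microglia-like cells, and the late one. The fitted log2 fold change was 6.30 ± 1.07 (SE; edgeR quasi-likelihood test, adjusted p = 0.000738). Iigp1, a GTPase recruited early to parasite vacuoles, lies on the plus strand of chromosome 18 (60376027 to 60392634). It had 2 UMIs in both naïve libraries together and 197 in TAM I (log2 fold change 5.99 ± 0.99, adjusted p = 0.000559). Iigp1 too was at 0 in the 5 cells labelled WT intermediate.

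The other microglial members started from a measurable level. Gbp5, which promotes inflammasome assembly, went from 14.6 and 20.0 CPM in naïve brains to between 57.7 and 223 CPM (log2 fold change 3.30 ± 0.52, adjusted p = 0.000402). Gbp3 (2.73 ± 0.55, adjusted p = 0.00247), Irgm1, a regulator of the other IRG proteins (1.78 ± 0.44, adjusted p = 0.0103), and Gbp7 (1.52 ± 0.48, adjusted p = 0.0392) passed the same test. Igtp (also called Irgm3) was at 53.5 and 33.4 CPM in naïve microglia and at 0 to 114 CPM in TAM I, with overlapping groups (0.79 ± 0.56, adjusted p = 0.356). Irgm2 and Gbp2b were too low to be tested. Without the naïve library labelled KO, Gbp5 and Iigp1 alone of the members passed (2 of 7), and Gbp7 also failed without the naïve or early library labelled WT or the intermediate library labelled KO.

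The wider interferon response was counted by lists drawn up for this purpose. Of other IRG and GBP genes, 3 of 7 tested were higher in TAM I, namely Gbp4 (log2 fold change 7.87 ± 1.42), Gbp6 (6.32 ± 1.61) and Gbp8 (3.83 ± 0.89). Gbp4 and Gbp6 had 0 UMIs in naïve microglia, so those values depend on the fit's prior. Of interferon gamma signalling genes, 4 of 8 tested were higher, among them the chemokines Cxcl9 and Cxcl10, and 1, the receptor subunit Ifngr1, was lower (log2 fold change -1.81 ± 0.39, adjusted p = 0.00394). Of type I interferon response genes 8 of 10 were higher, led by Isg15 (5.33 ± 0.86), Ifit2 (4.93 ± 0.61) and Irf7 (4.42 ± 0.82). Macrophage markers summed to 687 and 773 CPM in naïve microglia and to 1187 to 4066 CPM in TAM I, with 6 of 12 and 11 of 12 markers detected, and the defining macrophage markers Arg1 and Ly6c2 at 0 in naïve microglia. Microglia markers summed to 37920 to 41361 CPM in naïve microglia and 28814 to 34869 CPM in TAM I. Tumour-cell markers summed to 200.1 and 233.4 CPM (5 of 8 detected, Col9a1, Col11a1 and Col3a1 at 0) in naïve microglia and to 425.1 to 1746 CPM (8 of 8) in TAM I, with no overlap. The part of these markers in the result was not tested.

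In oligodendrocytes, the myelinating cells, Igtp and Iigp1 had 0 UMIs among 487088 in the naïve libraries, a count that allows up to 6.16 CPM. Igtp was at 451, 0 and 27.7 CPM in the early, intermediate and late libraries labelled WT and at 659, 264 and 584 CPM in those labelled KO. The value labelled WT intermediate equals the naïve value of 0, that labelled WT late rests on 3 UMIs, and the other 4 lie above 264 CPM. With UMIs of all tumour-bearing libraries pooled, Igtp lay 56.5-fold and Iigp1 79.4-fold above the naïve limit of 6.16 CPM. Exact lower bounds of these pooled ratios were 45.6 and 64.2. The fitted log2 fold changes, which depend on the fit's prior, were 8.71 ± 1.77 for Igtp (edgeR, adjusted p = 0.0152) and 9.20 ± 1.97 for Iigp1 (adjusted p = 0.0221). Gbp3 (log2 fold change 6.17 ± 1.02, adjusted p = 0.00513) and Irgm1 (5.10 ± 0.96, adjusted p = 0.00934) passed too. Gbp2, with 0 naïve UMIs, lay 22.9-fold above the same limit when pooled (exact lower bound 18.3). Its fitted log2 fold change was 7.19 ± 1.88 with an adjusted p of 0.0605. Gbp7 had a log2 fold change of 3.50 ± 0.91 with an adjusted p of 0.056. All 4 calls were lost without the naïve library labelled KO, and that of Iigp1 also by DESeq2 (adjusted p = 0.138) and without the late library labelled KO (adjusted p = 0.0559).

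Among the listed genes oligodendrocytes showed 1 of 2 other IRG and GBP genes higher (Gm12250, an IRG gene), and 5 of 7 type I genes, with Oasl2, Ifit1 and Ifit3 leading. Oasl2 and Ifit1 had 0 naïve UMIs. After thinning every cell to 1500 UMIs, 2.78% of naïve oligodendrocytes (95% interval 0.762 to 6.96%) and 46.4% of those in tumour-bearing libraries (39.8 to 53.2%) held any member UMI, over the cells of all such libraries together. By library the thinned shares were 48.2%, 12.5% and 14.7% in the early, intermediate and late libraries labelled WT and 86.2%, 38.7% and 82.6% in those labelled KO, so the pooled share lies between libraries that stand far apart. Unthinned pooled shares were 5.56% and 57.6% at median depths of 3080.5 and 2726.5 UMIs. Neurons, a class with little member RNA, gave 0 of 10 naïve cells and 28.0% of 25 tumour-bearing cells (12.1 to 49.4%) after thinning. RNA free in the suspension could add such UMIs to any class. In the library labelled WT intermediate, oligodendrocytes held 88.3 CPM of all 9 members together while tumour cells held 1874 CPM, and in that labelled KO intermediate the values were 1959 and 4167 CPM. Oligodendrocyte markers summed to 82907 to 112498 CPM in tumour-bearing and 87675 to 89089 CPM in naïve oligodendrocytes, and tumour markers to 166 to 1270 and 94.6 to 180 CPM. The part of free RNA and of tumour RNA in the result was not tested.

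Endothelial cells, which line the vessels, stood apart by their naïve level. Gbp3 was at 397 and 357 CPM in naïve brains and at 514 to 782 CPM in the 5 tumour-bearing libraries with enough cells (log2 fold change 0.66 ± 0.29, adjusted p = 0.269). Iigp1 was at 107 and 121 CPM in naïve brains and 212 to 397 CPM in tumour-bearing ones, with no overlap (1.29 ± 0.31, adjusted p = 0.0169). Gbp2 (1.26 ± 0.38, adjusted p = 0.0708), Irgm1 (0.86 ± 0.31, adjusted p = 0.153) and Gbp7 (0.62 ± 0.31, adjusted p = 0.342) did not pass. Iigp1 lost its call without the naïve library of either label, without the early library labelled KO (adjusted p = 0.0522), and without cells that held more mural or fibroblast than endothelial UMIs (1.10, adjusted p = 0.109). Mural and fibroblast markers summed to 1715 to 3026 CPM in naïve endothelial cells and to 1117 to 6827 CPM in tumour-bearing ones. Tumour-cell markers summed to 978.7 and 1001 CPM (4 of 8 detected) in naïve and 1606 to 4382 CPM (8 of 8) in tumour-bearing endothelial cells, and microglia markers to 1758 and 1915 CPM (12 of 12) and 2454 to 3868 CPM (10 of 12, Tmem119 and Fcrls at 0), both with no overlap. The part of these markers in the result was not tested. Of type I genes 3 of 8 tested were higher (Bst2, Ifit3 and Isg15), none of 2 other IRG and GBP genes, and the 1 interferon gamma signalling gene tested was not.

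In astrocytes 1 member could be tested, and it passed. Irgm1 was at 43.7 and 68.4 CPM in naïve brains and at 98.1 to 1083 CPM in the 5 tumour-bearing libraries with at least 5 cells (log2 fold change 2.67 ± 0.55, adjusted p = 0.0181), against a background of 0.731% of 684 genes. None of the listed genes could be called, with 0 or 1 gene per list tested, and the Irgm1 call was lost without the naïve library labelled KO (1.93, adjusted p = 0.554) and with doublets removed (2.55, adjusted p = 0.0663). Tumour-cell markers summed to 653.0 and 665.4 CPM in naïve astrocytes and to 795.2 to 3891 CPM in tumour-bearing ones, with no overlap and 7 of 8 detected in both, and their part in the result was not tested.

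**Figure D2:**
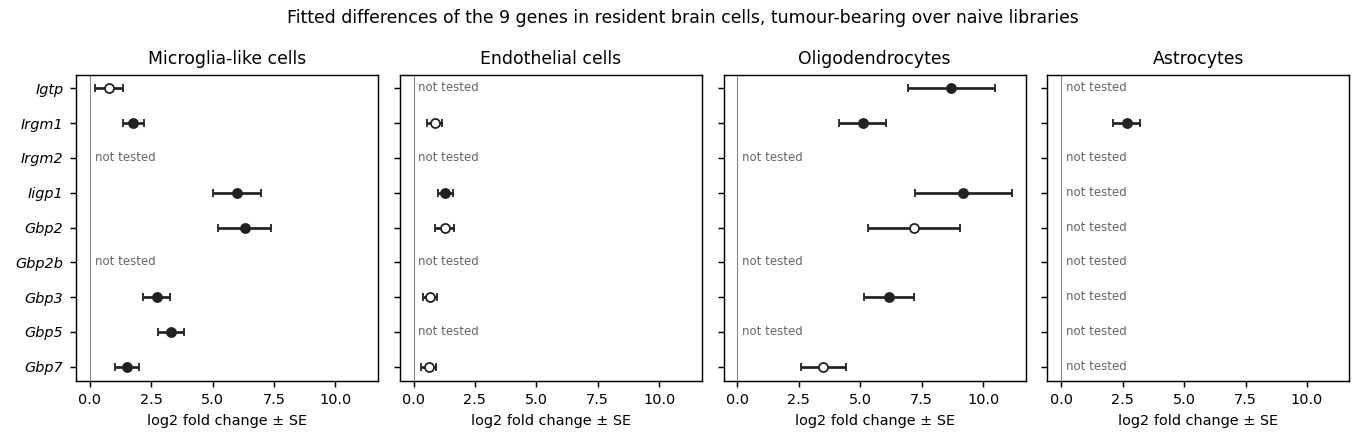
Fitted log2 fold change (± SE) of each gene between tumour-bearing and naïve libraries in 4 resident brain cell classes. Filled points passed a Benjamini-Hochberg adjusted p of 0.05 over all genes tested, and genes with too few UMIs are marked. Endothelial values lie from 0.62 to 1.29. In oligodendrocytes Igtp, Iigp1 and Gbp2 had no naïve UMIs, so their points depend on the prior count of the fit.

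The next comparison set TAM I and TAM II against the tumour cells of the same libraries, pairing classes within a library. All 4 IRG members were lower in TAMs than in tumour cells (29.8% of 13697 genes were lower), Gbp2b and Gbp7 were higher (26.6% of genes), and Gbp2, Gbp3 and Gbp5 did not pass the test.

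Igtp was at 571, 198 and 63.0 CPM in tumour cells of the early, intermediate and late libraries labelled WT, and at 924, 647 and 751 CPM in those labelled KO. In TAM II it was at 77.0, 11.8 and 50.6 CPM (labelled WT) and 104, 43.7 and 256 CPM (labelled KO). Tumour cells were higher in each of the 6 libraries. The fitted log2 fold change of TAMs over tumour cells was -2.17 ± 0.30 (edgeR, adjusted p = 1.55e-05). Irgm2 (-1.83 ± 0.25, adjusted p = 1.42e-05), Irgm1 (-1.35 ± 0.18, adjusted p = 1.32e-05) and Iigp1 (-0.80 ± 0.17, adjusted p = 0.001) followed the same direction. Without the library block Iigp1 stood at -0.73 with an adjusted p of 0.365.

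Gbp7 was at 266, 202 and 131 CPM in tumour cells labelled WT and at 271, 261 and 366 CPM in those labelled KO. Its TAM II values were 576, 165 and 219 CPM, and 429, 369 and 596 CPM, higher than tumour cells in 5 of 6 libraries. Its fitted log2 fold change was 1.14 ± 0.18 (adjusted p = 6e-05), and that of Gbp2b 2.40 ± 0.33 (adjusted p = 1.86e-05). Gbp2 (-0.32 ± 0.16, adjusted p = 0.0923), Gbp3 (-0.10 ± 0.13, adjusted p = 0.571) and Gbp5 (0.21 ± 0.28, adjusted p = 0.542) were not called. The median over all genes was -0.11 with TMM scaling and -0.56 with no scaling factor, which turned Gbp5 to -0.25, so small values here depend on scaling. With no factor the share of all calls that were higher went from 47.1% to 29.9%, the other 8 members kept their signs, and 6 of the 9 were called lower. TAM II held 1470 to 3940 CPM of tumour-cell markers and 9321 to 11974 CPM of microglia markers over the 6 libraries, with no gene of either list (8 and 12 genes) at 0 over them together, and the part of these in the results was not tested.

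Other IRG and GBP genes were divided in the same fit, with 10 of 17 lower in TAMs and 5 higher. The largest changes were 9930111J21Rik2 (4.65 ± 0.33), Tgtp1 (-3.03 ± 0.33), an IRG gene, and Gbp8 (2.70 ± 0.18). The signalling lists leaned to TAMs, with 9 of 12 interferon gamma genes higher (led by Cxcl9 at 5.79 ± 0.31, Ifngr2 at 3.94 ± 0.20 and Irf8 at 2.96 ± 0.40) and 11 of 15 type I genes higher (led by Mx1, Irf7 and Ifnar2). None of either list was lower.

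Between the TAM classes 1 of 8 tested members was called, higher in TAM II, beside 13.7% of 3820 genes. Gbp2b, a GBP gene next to Gbp2, was at 50.8, 0 and 0 CPM in TAM II of the early, intermediate and late libraries labelled WT and at 230, 115 and 495 CPM in those labelled KO. In TAM I it was at 3.64, 0 and 0 CPM, and at 0, 0 and 63.2 CPM. TAM II was higher wherever either class held a UMI. The fitted log2 fold change was 3.83 ± 0.48 (edgeR, adjusted p = 6.1e-06). DESeq2 gave 3.28 with an adjusted p of 0.196. The other 7 tested members had log2 values from -0.59 ± 0.22 (Gbp2, adjusted p = 0.0572) to 0.27 ± 0.22 (Gbp3), and Irgm2 was too low to test. Of other IRG and GBP genes, Ifi47 (1.61 ± 0.33) and Gbp8 (0.74 ± 0.25) were higher in TAM II and 9930111J21Rik2 was lower (-1.59 ± 0.37), of 9 tested. Cxcl9 was higher and Irf8 lower among 8 interferon gamma genes, and Irf7 and Isg15 higher among 11 type I genes.

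Gbp2b differed from its neighbour across cells. It had 0 UMIs in oligodendrocytes, astrocytes, and mural cells or fibroblasts of tumour-bearing libraries, where Gbp2 had 106, 17 and 286. Among 752768 oligodendrocyte UMIs a count of 0 allows a level up to 3.99 CPM. Gbp2b made up 8.07% of member UMIs in TAM II, 0.675% in tumour cells and 0.368% in TAM I, whereas Gbp2 made up 25.6%, 23.6% and 34.4%. The Gbp2b UMIs came from a minority of macrophages: 5 of 108 cells labelled WT early, 25 of 74 labelled KO early, 15 of 84 labelled KO intermediate and 52 of 120 labelled KO late. In the library labelled WT early the cell with the most UMIs held 37.9% of them, and in that labelled KO late 8.20%. All 29 UMIs of the library labelled WT early came from the deepest macrophage cluster, with a median of 10419 UMIs per cell. After thinning to 1500 UMIs, 15.6% of TAM II cells of all libraries together (12.3 to 19.4%) held a Gbp2b UMI, against 1.14% of TAM I cells (0.138 to 4.04%) and 0 of 224 oligodendrocytes. Unthinned, the shares were 22.6% and 2.27% at median depths of 3333.5 and 2996.5 UMIs.

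**Figure D3:**
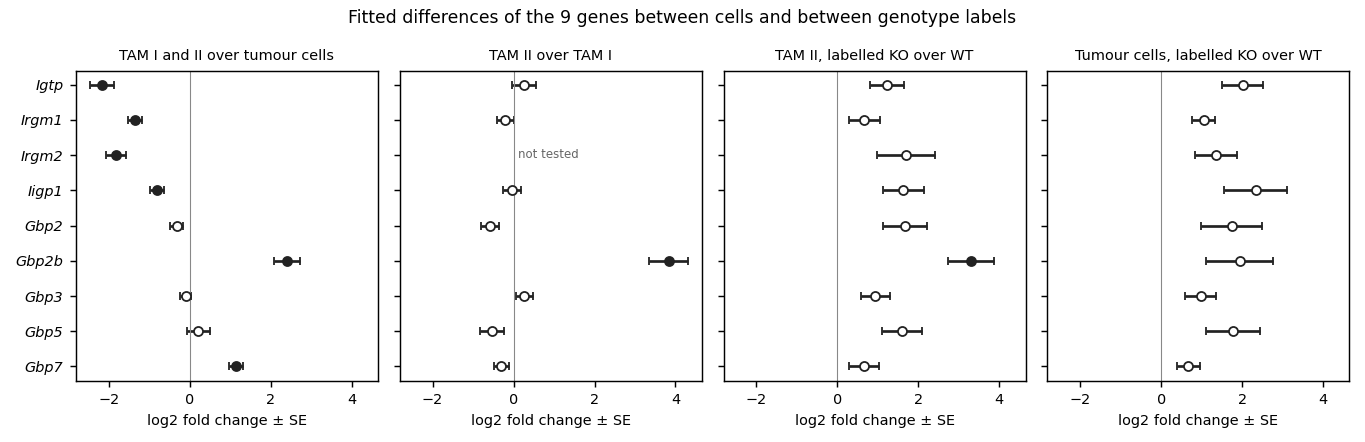
Fitted log2 fold change (± SE) of each gene in 4 comparisons across the tumour-bearing libraries, filled where the adjusted p was under 0.05. The 4 IRG genes lie below 0 for TAMs over tumour cells, from -2.17 to -0.80, Gbp2b lies at 3.83 for TAM II over TAM I, and in the genotype panels every point is above 0 while Gbp2b in TAM II alone is filled.

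The genotype comparison asked whether cells of the libraries labelled KO and WT differed, with the stage as a block. In tumour cells all 9 members had a positive fitted value and 0 passed, and 0% of the 14373 genes tested were called. In TAM II all 9 were positive and 1 passed, Gbp2b, beside 0.114% of 6165 genes called higher. In TAM I all 6 tested members were positive and 0 passed, and 0% of 1917 genes were called. For the summed members the libraries of the labels lay close at the early stage and several-fold apart at the late stage. Single members could differ from this. Gbp2b in TAM II was at 50.8 CPM labelled WT early and 230 CPM labelled KO early. Gbp5 in TAM I was at 135.3 CPM labelled WT late and 126.5 CPM labelled KO late.

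In tumour cells Iigp1 was at 754, 169 and 37.4 CPM in the early, intermediate and late libraries labelled WT and at 914, 732 and 951 CPM in those labelled KO. The range of the libraries labelled WT overlaps that labelled KO only through its early value. The fitted log2 fold change was 2.33 ± 0.77 with an adjusted p of 0.623. Igtp had the lowest p of the members there, with 2.01 ± 0.50 (unadjusted p = 0.00492, adjusted p = 0.474) and no overlap between the labels. In this fit 926 genes had an unadjusted p under 0.05, 7 of the 9 members among them, and DESeq2 called 1 member, Irgm1. The median log2 value was 1.74 over the members and 0.00 over all genes tested. In these tumour cells microglia markers summed to 1015 to 1737 CPM labelled WT and 1889 to 2747 CPM labelled KO. Endothelial markers summed to 210.7 to 271.2 and 440.9 to 554.6 CPM, both pairs with no overlap. Oligodendrocyte markers overlapped (1415 to 2567 and 1217 to 1591 CPM). In the late libraries macrophage markers stood at 197.2 and 736.7 CPM and lymphocyte markers at 9.896 and 210.2 CPM. The part of these markers in the result was not tested.

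In TAM II, Gbp2b (values above) had a log2 fold change of 3.31 ± 0.57 (edgeR, adjusted p = 0.0141). It was not called by DESeq2 (adjusted p = 0.35), with no scaling factor (0.0955), without the stage term (0.695), after clustering with all genes (0.0794), with a minimum of 500 genes per cell (0.0945) or with doublets removed (0.0564). The log2 fold changes in these alternatives were 5.29, 3.32, 3.12, 3.28, 3.37 and 3.29 in the same order. Gbp5 (1.60 ± 0.50, adjusted p = 0.415), Iigp1 (1.63 ± 0.51, adjusted p = 0.415) and Gbp2 (1.67 ± 0.55, adjusted p = 0.501) came next. The 9 members had a median of 1.60 beside 0.01 over all genes tested. Markers of other cells also differed between the late libraries, given with the label WT first. In TAM II endothelial markers stood at 50.61 and 310.2 CPM, lymphocyte markers at 8.435 and 111.5 CPM, and oligodendrocyte markers at 531.4 and 1511 CPM. Tumour-cell markers there stood at 2961 and 2654 CPM. In TAM I oligodendrocyte markers stood at 5221 and 607.1 CPM and tumour-cell markers at 654.1 and 1746 CPM. The part of these markers was not tested. In TAM I, Gbp2 had 2.42 ± 0.86 (adjusted p = 0.8). There 77 genes and 4 of the 6 members had an unadjusted p under 0.05, and DESeq2 called 0 members. Without the early library labelled WT, Gbp2 stood at 4.93 in TAM I and 2.77 in TAM II, and Iigp1 at 4.60 and 3.31.

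In tumour cells the median log2 value of labelled KO over WT was 1.84 for 17 other IRG and GBP genes, 1.24 for 13 interferon gamma signalling genes and 0.28 for 15 type I genes. In TAM II the medians were 1.27 (10 genes), 1.09 (11 genes) and 0.23 (15 genes), and in TAM I 1.59 (2 genes), 0.37 (8 genes) and 0.41 (9 genes). No gene of these lists was called in any of the 3 cell classes.

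With 1 library per genotype and stage, single stages carry no test. In tumour cells the 9 members summed to 4168, 1874 and 713 CPM in the early, intermediate and late libraries labelled WT and to 5041, 4167 and 5566 CPM in those labelled KO. The log2 ratio of labelled KO to WT was 0.27 (0.24 to 0.31), 1.15 (1.12 to 1.18) and 2.96 (2.92 to 3.01). In TAM II the sums were 2163, 708 and 590.5 CPM (labelled WT) and 2564, 1648 and 4153 CPM (labelled KO), and the ratios 0.25 (0.12 to 0.37), 1.22 (0.83 to 1.63) and 2.81 (2.47 to 3.18). In TAM I they were 2228, 404 and 767 CPM and 2330, 2571 and 5009 CPM, with ratios of 0.06 (-0.19 to 0.31), 2.67 (1.61 to 3.99) and 2.71 (2.33 to 3.10), the second resting on 7 member UMIs in the 5 cells labelled WT intermediate. The intervals exclude 0 in each case other than early TAM I. Naïve microglia had 423 CPM (labelled WT) and 320 CPM (labelled KO), a log2 ratio of -0.40 (-0.84 to 0.03).

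**Figure D4:**
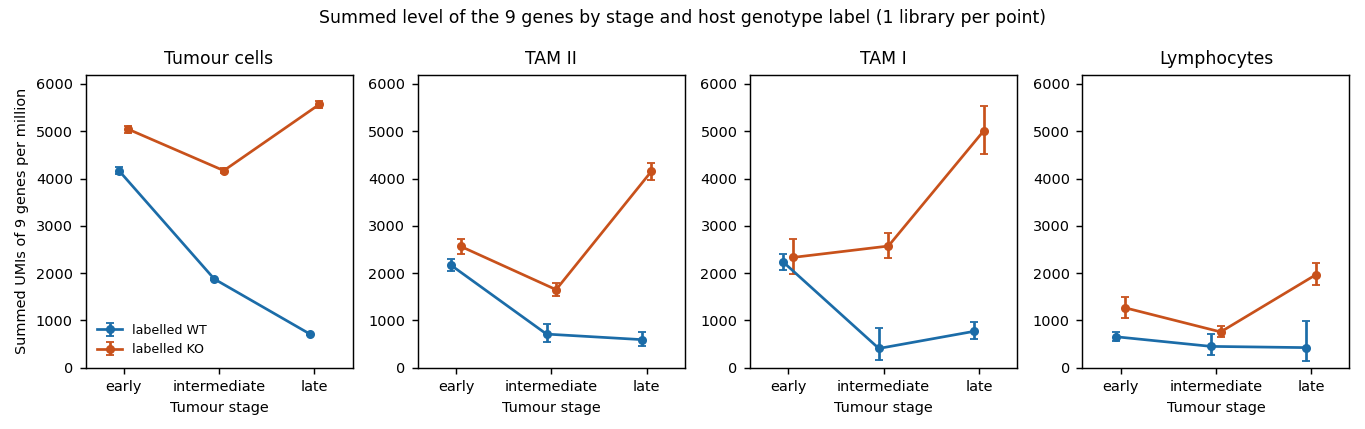
Summed level of the 9 genes (CPM) by tumour stage in 4 cell classes, with exact 95% Poisson intervals. Each point is 1 library, so the bars show counting error and no spread between mice. The lines for tumour cells start at 4168 and 5041 and end at 713 (labelled WT) and 5566 (labelled KO).

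At the late stage the members spread widely. In TAM II, Gbp2 was at 33.7 CPM labelled WT (4 UMIs) and 1133 CPM labelled KO (559 UMIs), a log2 ratio of 5.07 (3.71 to 6.95), and Iigp1 at 33.7 and 551 CPM (4.03, 2.66 to 5.92). Gbp2b, with 0 and 244 UMIs, lay 19.6-fold higher labelled KO than the upper limit set for a count of 0 labelled WT. In tumour cells the ratio was largest for Gbp2b (9 and 244 UMIs, 5.34, 4.39 to 6.48), followed by Iigp1 (4.67) and Gbp2 (4.39). Gbp7 stood at 131 and 366 CPM in the same cells. The share of tumour cells with any member UMI, thinned to 1500 UMIs, was 54.9% (50.6 to 59.0%) in the late library labelled WT and 99.2% (97.9 to 99.8%) in that labelled KO, or 80.3% and 100% unthinned at median depths of 4320.5 and 4224.5 UMIs.

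Counting how often a member was higher in the library labelled KO at each of the 3 stages gave 8 of 9 in tumour cells, with Irgm2 the exception, 7 of 9 in TAM II and 3 of 8 in TAM I. The same held for 9.95%, 12% and 15% of all genes at 20 CPM or more in those classes. The values of the labels did not overlap at all for Igtp in tumour cells, Irgm2, Gbp2b and Gbp3 in TAM II, and Igtp, Irgm1 and Gbp3 in TAM I. This was 1 of 9, 3 of 9 and 3 of 8 members, beside 4.38%, 4.13% and 5.10% of all genes at 20 CPM or more whose 3 levels labelled KO lay above the 3 labelled WT. In TAM I, Igtp and Gbp3 had 0 UMIs in the 5 cells labelled WT intermediate, a count that allows up to 173 CPM. Labelled KO intermediate, Gbp3 was at 236 CPM, above that limit, and Igtp at 74.2 CPM, below it. The place of Igtp in both TAM I counts is thus not resolved at this depth.

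Late against early, 0 members passed in tumour cells, TAM II or TAM I, where 0%, 0.195% and 0.0522% of genes were called in either direction (1012, 422 and 90 genes had an unadjusted p under 0.05, with edgeR). These fits average both labels, and the labels ran apart. By the study's methods the early mouse labelled WT was female and the late one male, while both labelled KO were male. Sex and stage thus cannot be told apart between the early and late libraries labelled WT. In libraries labelled WT the summed members had a late-to-early log2 ratio of -2.55 (-2.60 to -2.50) in tumour cells, -1.87 (-2.24 to -1.52) in TAM II and -1.54 (-1.92 to -1.18) in TAM I. In those labelled KO the ratios were 0.14 (0.11 to 0.17), 0.70 (0.59 to 0.81) and 1.10 (0.84 to 1.38). Within tumour cells labelled KO the families differed in sign, with -0.15 (-0.19 to -0.11) for the summed IRG members and 0.46 (0.42 to 0.50) for the GBP members. With a late or early library left out, that stage is left with a single library, so log2 values alone are given. Without the late library labelled KO, Gbp2 stood at -3.55 in tumour cells and -4.04 in TAM II. Without the late library labelled WT, it stood at 0.20 and 0.47. In TAM I, Gbp2 ran from -3.51 without the early library labelled KO to 1.80 without that labelled WT. The full fits gave -1.29, -0.85 and -0.78 in tumour cells, TAM II and TAM I.

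Other classes held fewer cells than the tumour cells did. Oligodendrocytes held 2440, 88.3 and 138 CPM of the summed members in libraries labelled WT and 3352, 1959 and 2750 CPM in those labelled KO. Lymphocytes held 652, 447 and 422 CPM, the last from 4 cells, and 1263, 754 and 1966 CPM. In lymphocytes the early ratio of labelled KO to WT was 0.95 (0.61 to 1.29). Astrocytes ranged from 262 CPM (labelled WT late) to 4457 CPM (labelled KO late), but at the intermediate stage held 989 CPM labelled WT, from 3 cells, and 423 CPM labelled KO. Values of mural cells or fibroblasts ran from 394 CPM (labelled WT intermediate, 3 cells) to 12059 CPM (labelled KO early, 4 cells). In the mural or fibroblast class Iigp1 made up 34.9% of the 1175 member UMIs of tumour-bearing libraries. Barcodes below the 1000 deepest of each library, which entered no class, carried 2000, 1634 and 627 CPM of members in tumour-bearing libraries labelled WT and 3773, 2896 and 4462 CPM in those labelled KO, beside 259 and 220 CPM in naïve ones. The part of free RNA in the levels of the classes was not tested.

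Interferon gamma itself, the cytokine made by T cells and natural killer cells, was counted beside the members. Ifng had 83, 0 and 0 UMIs over all cells of the early, intermediate and late libraries labelled WT and 126, 11 and 43 UMIs in those labelled KO. Of these UMIs 82 lay in lymphocytes in the library labelled WT early and 80, 11 and 26 in those labelled KO early, intermediate and late. The rest lay in cells of other classes, most of them tumour cells. Tumour cells held 1 Ifng UMI labelled WT early, 44 labelled KO early (in 12 cells) and 17 labelled KO late (in 7 cells). The part of mixed cells in these counts was not tested. Lymphocytes numbered 69, 6 and 4, and 32, 41 and 35, or 9.56%, 0.60% and 0.562% and 4.36%, 4.88% and 4.48% of cells. Per lymphocyte UMI, Ifng was at 318 CPM labelled WT early and at 777, 51.2 and 194 CPM labelled KO early, intermediate and late. The 6 and 4 lymphocytes of the other libraries held none, at a depth that allows 74.5 and 253 CPM. The members over all cells were at 3350, 1816 and 692 CPM and 4588, 3702 and 5177 CPM in the same order. The limit of 74.5 CPM in lymphocytes labelled WT intermediate lies above the 51.2 CPM counted in those labelled KO intermediate. The part of Ifng in the levels of the members was not tested.

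Irf1 encodes a factor downstream of interferon gamma. It was at 245, 94.5 and 54.4 CPM in tumour cells labelled WT early, intermediate and late and at 267, 216 and 270 CPM in those labelled KO. The early values of the labels lie close to each other, and the late values are several-fold apart. In TAM II the late library labelled WT held 33.7 CPM of Irf1, against 292 CPM in that labelled KO, and in TAM I 203 CPM against 253 CPM. These single-library levels carry no test.

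Genes whose levels were most like the members were found by Pearson's r of log2(CPM + 10) with the mean of the members. Over 40 sums of a class in a library with at least 20 cells, and among 8018 genes, the 10 most alike included Psmb9 (r = 0.914), Psmb10 (0.905), Tap1 (0.896), Psmb8 (0.890), Gm12250 (0.886), Gbp4 (0.884), H2-Q4 (0.882), H2-T22 (0.881) and Tap2 (0.880). Psmb8, Psmb9 and Psmb10 encode immunoproteasome subunits, Tap1 and Tap2 the peptide transporter of antigen presentation, and H2-Q4 and H2-T22 class I-type molecules. Over the 12 TAM I and TAM II sums of tumour-bearing libraries the 10 most alike included Gbp4 (0.964), Gm12250 (0.960), Gm4951 (0.947), Rnase6 (0.926), Fgl2 (0.924), Il18bp (0.902), Psmb9 (0.897), H2-DMa (0.890) and Gbp8 (0.883). Sums of the same library share depth and mouse, so these values are descriptions. Among the members themselves, each against the mean of the other 8 over the 40 sums, r ran from 0.511 for Gbp2b to 0.927 for Gbp2.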

How the data were processed

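The authors made Drop-seq libraries, sequenced them on a NextSeq 500, and deposited 1 table of raw UMI counts per gene and barcode for each library. The submitters' processing notes name bcl2fastq 2.0, STAR and GRCm38/mm10, and whether the counting used strand is not given in the sources used here. Each table listed 3000 barcodes and 2885345 to 9950713 UMIs.

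The 1000 deepest barcodes per library were taken, and cells with at least 1000 genes and genes found in at least 30 cells were kept. Log CPM (1 added) without 54 IRG, GBP and interferon genes were reduced to 50 principal components and embedded by tSNE (Rtsne 0.17, perplexity 50). They were clustered with HDBSCAN (scikit-learn 1.9.0, at least 19 cells), unassigned cells joining their 15 nearest neighbours, and clusters were named from fixed marker lists. Doublets were not removed in the main analysis, and Scrublet marked 1 to 48 cells per library. Where it marked under 0.5%, the alternative with doublets removed took out the 5% of cells with the highest score, so 10 to 50 cells per library were removed.

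Counts were summed per class and library (at least 5 cells) and tested across libraries with edgeR 4.0.16 (quasi-likelihood test, TMM, filterByExpr, R 4.3.3). P-values were two-sided and adjusted by Benjamini-Hochberg over all genes tested, with 0.05 as the threshold. Stage was a block in KO against WT and library in comparisons of classes. Each genotype and stage had 1 library, so p-values rest on the spread between stages or genotypes, and single stages were given counting intervals only. Shares of cells were given exact Clopper-Pearson intervals and compared after thinning to 1500 UMIs per cell. A count of 0 was given an upper limit of 3 counts. UMIs of 1 cell are not independent, so these intervals cover counting error only. Tested on simulated data with 1 size of change and 1 spread between libraries, the fits recovered known changes. This does not show how they do with smaller changes or a wider spread. DESeq2 1.42.0, other scalings, filters, clusterings and each library left out were alternatives, and the scaling by total UMIs was added after seeing the data.

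All members are named in the comparisons. Of the other lists the number past the threshold and the 3 largest changes are given, with Ifng and Irf1 by library, and genes among the 10 most like the members. One gene of the lists is counted but not reported here by name, and a count that rested on it alone is left out. Acod1 and the marker lists are given as checks. The members and lists were chosen with earlier results of these data known.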

Additional observations from a re-analysis of the deposited data

Results flagged for a closer look

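Gbp2 in TAM I of the late library labelled KO stood at 2441 CPM, apart from the other 5 tumour-bearing libraries, of which the next was at 746.3 CPM. Gbp2b in the same cells stood at 63.24 CPM (5 UMIs), with the next library at 3.640 CPM (1 UMI). Tumour-cell markers in these cells summed to 1746 CPM, against 425.1 to 748.4 CPM in TAM I of the other 5 libraries. Their part in the result was not tested. The gap to the next library exceeded Dixon's 95% critical value of 0.625 in these 2 of 30 groups of 6 libraries, and chance gives about 1 in 20. These groups span 2 genotype labels and 3 stages.

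Late over early log2 ratios had opposite signs in the libraries labelled WT and KO, with counting intervals that exclude 0 in both. For all 9 members they were -1.54 and 1.10 in TAM I, -1.87 and 0.70 in TAM II, and -2.55 and 0.14 in tumour cells, the label WT first in each pair. Gbp2 gave -3.46 and 1.91 in TAM I, -3.96 and 0.68 in TAM II, and -3.69 and 0.45 in tumour cells. Gbp3 gave -1.06 and 0.55 in TAM II and -1.46 and 0.64 in tumour cells. Gbp7 gave -1.39 and 0.47 in TAM II and -1.03 and 0.44 in tumour cells. The same rule on intervals was met in TAM II alone for Irgm1 (-1.18 and 0.67), Iigp1 (-3.25 and 0.62) and Gbp5 (-2.30 and 0.46). In tumour cells it was met for Gbp2b (-4.13 and 1.09). Signs were opposite in other cases where an interval included 0. An example is Iigp1 in TAM I (-3.81 and 0.80, the latter with -0.01 to 1.66). Each stage and label had 1 library, so the difference between labels was not tested. Sex also differed between the early and late mice labelled WT.

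Barcodes that entered no comparison also carried member UMIs. They held 2000, 1634 and 627.2 CPM in the early, intermediate and late libraries labelled WT and 3773, 2896 and 4462 CPM in those labelled KO, above the higher naïve value of 258.8 CPM.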

How the results depend on the processing

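Of the alternatives for single members, 819 kept the direction and side of the threshold, 13 lost a call, 27 gained a call and 14 changed sign. With a library left out the numbers were 441, 16, 39 and 40. The cause of these changes was not tested, other than that leaving out the naïve library labelled KO leaves 1 naïve library, which the fit assumes to vary like the other groups. No paired analysis was possible because the labels number no replicates within a genotype and stage (1 library each), so the pairing by stage or by library in the fits is the only one. Depth limits the small classes: 5 TAM I cells in the library labelled WT intermediate and 3 endothelial cells or astrocytes, which entered no fit.

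Members higher in endothelial cells (1) numbered 0 with no low-count filter, 0 with a minimum of 500 genes per cell, 0 without cells richer in mural or fibroblast UMIs, 2 with doublets removed and 3 with at least 10 cells per sum. In oligodendrocytes (4) there were 8 with no low-count filter. In astrocytes (1) there were 4 with no filter, 3 with at least 10 cells, 3 with 500 genes and 0 with doublets removed. For TAM II over TAM I, the 1 higher member became 0 with DESeq2 and 0 without the library block, and the 0 lower became 1 with no TMM factor and 1 with at least 10 cells. For the label KO over WT in TAM II (1), 4 members passed with no filter and 0 with DESeq2, no TMM factor, no stage term, clustering with all genes, 500 genes or doublets removed. In tumour cells (0), 1 passed with DESeq2. The adjusted p of Gbp2b in TAM II ran from 1.2e-10 to 0.695 over all alternatives.

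Signs changed as follows, in log2. For TAM II over TAM I, Igtp went to -0.33 with 500 genes and -0.02 with doublets removed, and Iigp1 to 0.02 with DESeq2, 0.17 with no filter and 0.16 with clustering on all genes. Gbp5 went to -0.25 with no TMM factor and -0.09 with doublets removed for TAMs over tumour cells, and to -0.20 with at least 10 cells for the label in TAM I. Late over early, Irgm1 in TAM I went to 0.05 with no TMM factor and 0.13 with doublets removed. Igtp in TAM II went to -0.01 with another tSNE seed, -0.40 with 500 genes and -0.26 with doublets removed, and Gbp2b to -2.0 with DESeq2.

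With each library left out, the members called higher in tumour-bearing libraries ran from 2 to 6 in microglia (2 without KO naive) and from 0 to 7 in oligodendrocytes (0 without KO naive, 7 without WT intermediate). They ran from 0 to 3 in astrocytes (0 without KO naive) and from 0 to 3 in endothelial cells (0 without KO early or a naïve library, 3 without WT late). Members higher in the libraries labelled KO ran from 0 to 3 in TAM I (3 without WT early, 2 without KO early) and from 1 to 6 in TAM II (6 without WT early). Members lower in TAM II than TAM I ran from 0 to 1 (1 without KO early, KO late or WT intermediate). The shares of all genes called in these fits are not given, so the counts are not results about the members. Leaving out an early or late library leaves that stage with a single library, so late over early log2 values alone are given. Igtp ran from -0.14 to 1.50 in microglia and from -0.10 to 0.47 for TAM II over TAM I, and Iigp1 from -0.14 to 0.18 there. Gbp5 ran from -0.04 to 0.24 for TAMs over tumour cells and from -0.21 to 0.65 for the label in TAM I. Late over early in TAM I the ranges were -0.97 to 0.43 (Irgm1), -4.20 to 0.78 (Iigp1), -3.51 to 1.80 (Gbp2), -0.86 to 1.13 (Gbp3) and -1.50 to 0.61 (Gbp7). In TAM II they were -0.74 to 1.19 (Igtp), -1.26 to 0.45 (Irgm1), -1.08 to 1.60 (Irgm2), -3.15 to 0.40 (Iigp1), -4.04 to 0.47 (Gbp2), -6.81 to 1.01 (Gbp2b), -1.21 to 0.41 (Gbp3), -2.88 to 0.42 (Gbp5) and -1.52 to 0.34 (Gbp7). In tumour cells they were -3.55 to 0.20 (Gbp2), -3.84 to 0.70 (Gbp2b), -1.37 to 0.46 (Gbp3) and -0.95 to 0.27 (Gbp7).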

Other observations

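Member UMIs were spread unevenly over cells. The 10% of cells with the most member UMIs held 33.54 to 43.33% of them in TAM II and 41.77 to 59.75% in tumour cells, over libraries. These shares were not thinned, so they also carry differences in depth between cells.

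Some other classes were not tested. Dendritic cells, which present antigen, held 2651, 196.7 and 164.7 CPM of the 9 members in the early, intermediate and late libraries labelled WT and 2443, 1313 and 2087 CPM in those labelled KO. Oligodendrocyte precursor cells held 1370, 409.7 and 201.7 CPM, and 1569, 4283 and 934.1 CPM. Gbp2b had 0 UMIs in both classes in all libraries.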
